A study of Mus musculus with 6 samples.

Results

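In primary mouse macrophages 10 nuclear receptor genes were followed, chosen by gene name from a table of 54532 genes: *Pparg*, *Ppard*, *Rxra*, *Rxrb*, *Nr1h3*, *Nr1d1*, *Nr1d2*, *Nr4a1*, *Nr4a2* and *Nr3c1*. All 10 had a row. The macrophages came from mice labelled METRNL KO (METRNL-/-, called KO) and from WT mice (METRNL+/+), and every culture had been exposed in vitro to the fungus *Candida albicans* for 6 h. There were 3 KO and 3 WT libraries and no unexposed ones, so the only comparison is KO against WT in exposed cells. The labels give no strain, age, sex or tissue site, no description of the knockout allele, and no word on whether replicates were separate mice or cultures. The p-values are therefore limited to how far these libraries differ from each other, and that variation may be technical.

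Nuclear receptors are transcription factors whose activity is set by small lipophilic ligands or, for some, by how much of the protein is made. PPARs respond to fatty acids, the LXRs to oxysterols and the glucocorticoid receptor to corticosteroids, and PPARs and LXRs bind DNA as partners of the RXRs. The REV-ERBs bind heme and repress genes of the circadian clock, while the NR4A receptors have no classical ligand pocket and are induced within hours of an inflammatory stimulus. In macrophages these receptors are known for linking lipid handling, time of day and hormones to the strength of the inflammatory response.

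Values are FPKM, fragments scaled to the gene's length and to a total for each library. Reads in genes lay between 11026529 and 15724897 per library. The library total implied by the FPKM was 12793110 in KO replicate 1, below its 14772746 reads in genes, so this total was not plain depth. In WT replicate 1 it was 16034203, with 14309247 reads in genes. The FPKM of all genes summed to 412048 in KO replicate 1, the highest sum, and to 311409 in WT replicate 1, the lowest. Scaling to TPM, among the alternatives, makes these sums equal. The reason for the unequal scale was not tested. The targeted gene *Metrnl* does not check the labels: it had 51.2, 63.6 and 62.8 FPKM in KO replicates 1 to 3, against 93.5, 63.2 and 69.8 FPKM in WT replicates 1 to 3 (limma adjusted p = 0.181). KO therefore means labelled KO throughout. The first principal component, with 63.4% of the variance, set the labelled groups apart. KO replicates 1 to 3 stood at -21.9, -30.8 and -31 on it, and WT replicates 1 to 3 at 18.7, 34.8 and 30.2. On the second principal component, with 17.9% of the variance, KO replicate 1 stood at 25.4 and WT replicate 1 at -22.0, while the other 4 libraries lay between -8.84 and 8.82. All 11 macrophage markers were tested, with a summed level of 8972 to 9658 FPKM in KO and 5056 to 5891 FPKM in WT libraries, and 4 of them were higher and 1 lower in KO. All 13 tested of 15 B cell markers were lower in KO, with sums of 30.8 to 39.1 FPKM in KO and 576 to 741 FPKM in WT libraries. Markers were also lower in KO for 6 of 9 tested dendritic cell genes (sums of 92.7 to 106 FPKM in KO and 194 to 276 FPKM in WT libraries), 6 of 7 T and NK cell genes (71.7 to 88.6 FPKM in KO and 59.5 to 66.9 FPKM in WT libraries, the seventh, *Il7r*, being higher), 3 of 10 neutrophil genes (716 to 791 FPKM in KO and 967 to 1278 FPKM in WT libraries), 3 of 6 mesothelial and fibroblast genes (*Col1a1*, *Col3a1* and *Sparc*, which encode matrix proteins; sums of 6.72 to 8.49 FPKM in KO and 15.1 to 18.0 FPKM in WT libraries), 3 of 7 genes of large peritoneal macrophages (107 to 119 FPKM in KO and 182 to 196 FPKM in WT libraries) and 4 of 4 mast cell genes (0.993 to 1.39 FPKM in KO and 6.74 to 8.35 FPKM in WT libraries). None of these markers was at 0 in every library. Retinal markers, listed because an extraction label speaks of retinas, summed to 0.921 to 1.403 FPKM in KO and 0.771 to 0.838 FPKM in WT libraries. The part of other cell types in the receptor values was not tested, and in bulk RNA fewer cells of a type and less RNA per cell cannot be told apart.

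The clearest differences among the receptors were in the REV-ERB genes, which were higher in KO. *Nr1d1* was 1.71-fold and *Nr1d2* 1.85-fold higher, and *Rxra* was 1.25-fold higher by a margin that many alternatives ended. *Nr4a2* was lower, at 0.563 of its WT level. *Nr4a1*, the most abundant of the 10, and *Nr4a3*, its close relative, differed more between replicates than between genotypes. Of the 9 receptors that passed a minimum mean of 0.5 FPKM, 3 were called higher and 1 lower (limma on log2(FPKM + 1), Benjamini-Hochberg adjusted p below 0.05 over all 11689 genes tested), where 15.7% of all tested genes were called higher, 12.4% lower and 28% in either direction. The groups did not overlap for 5 of these 9 receptors, against 45.6% of all tested genes. KO lay above WT for 4 of them, against 25.7% of all tested genes, and below WT for 1, against 19.9%. Over all tested genes 1833 were called higher and 1445 lower, a split that TPM turned to 542 higher and 1161 lower. The median log2 fold change, in KO relative to WT and computed on log2(FPKM + 1), was 0.05 over the 9 receptors and 0.03 over all tested genes. These shares and medians describe the receptors and do not set them apart from other genes.

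**Figure D1:**
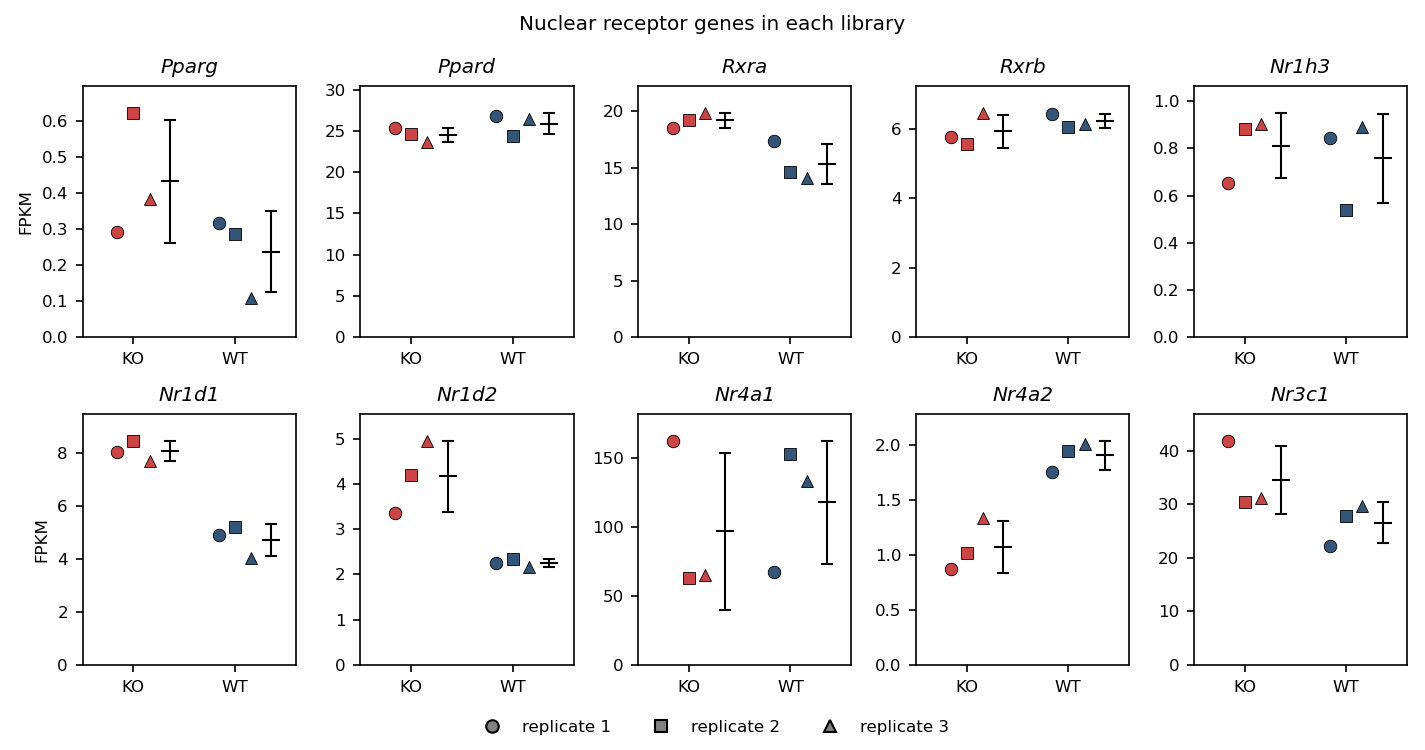
FPKM of the 10 nuclear receptor genes in each library, KO left and WT right, 1 panel per gene with a linear axis from 0. Markers give the replicate, and the bar beside each group is the mean ± SD (n = 3). The groups are apart for *Rxra*, *Nr1d1*, *Nr1d2*, *Nr4a2* and *Nr3c1*, while KO replicate 1 and WT replicate 1 lie with the other genotype for *Nr4a1*.

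**Figure D2:**
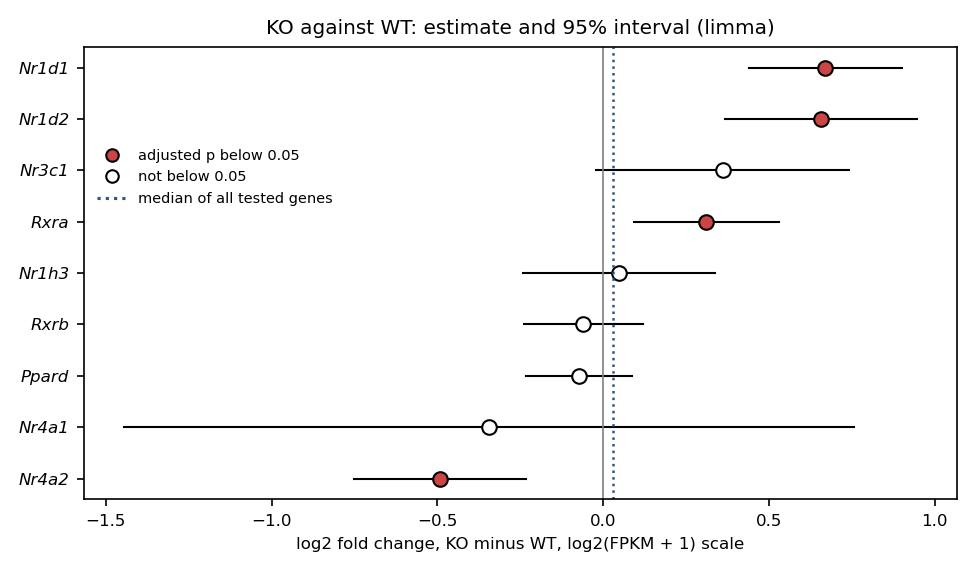
Log2 fold change, KO minus WT, of the 9 tested receptors, computed on log2(FPKM + 1), with the 95% confidence interval from limma. Filled points have an adjusted p below 0.05, and the dotted line is the median of all tested genes (0.03). *Nr4a1* has the widest interval, from -1.45 to 0.76.

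Since FPKM is per length, levels can be set in order between genes. In KO libraries the means ran from *Nr4a1* (96.7 FPKM) through *Nr3c1* (34.5), *Ppard* (24.5), *Rxra* (19.2), *Nr1d1* (8.09), *Rxrb* (5.93), *Nr1d2* (4.17), *Nr4a2* (1.07) and *Nr1h3* (0.812) to *Pparg* (0.433 FPKM). In this order the only neighbours whose libraries overlapped were *Nr4a2* and *Nr1h3*. In WT libraries *Rxrb* (6.21 FPKM) stood above *Nr1d1* (4.73 FPKM), the reverse of their order in KO, and the only neighbours that overlapped were *Nr3c1* (26.5 FPKM) and *Ppard* (25.9 FPKM). *Nr4a1* lay above 96.3% of all tested genes by its mean over the 6 libraries, *Nr3c1* above 88.4% and *Nr1h3* above 10.99%.

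Among the lipid-sensing receptors the RNA of PPARδ was abundant and that of PPARγ was scarce in these cells. *Pparg* (ENSMUSG00000000440, chromosome 6, 115360951 to 115490399, plus strand, GRCm38), which encodes the receptor known for fat cell formation and for alternative activation of macrophages, had 0.291, 0.622 and 0.384 FPKM in KO replicates 1 to 3, against 0.317, 0.288 and 0.108 FPKM in WT replicates 1 to 3. The groups overlapped, the values rest on 57 reads over the KO libraries and 29 over the WT libraries, and the gene was under the minimum for testing. With no filter its log2 fold change was 0.21 (limma adjusted p = 0.416). *Ppard* (chromosome 17, 28232700 to 28301474, plus strand), a receptor of wide expression that drives fatty acid oxidation, had 25.3, 24.7 and 23.6 FPKM in KO replicates 1 to 3, against 26.8, 24.4 and 26.4 FPKM in WT replicates 1 to 3. These overlapped and did not pass the test (log2 fold change -0.07, 95% interval -0.23 to 0.09, limma adjusted p = 0.457), although quantile normalization gave -0.22 with an adjusted p = 0.0418. *Nr1h3* (chromosome 2, 91184061 to 91202834, minus strand), the gene of LXRα, had 0.653, 0.882 and 0.902 FPKM in KO replicates 1 to 3, against 0.843, 0.540 and 0.889 FPKM in WT replicates 1 to 3. The groups overlapped and the test was not passed (log2 fold change 0.05, 95% interval -0.24 to 0.34, limma adjusted p = 0.805). Its relative *Nr1h2*, the gene of LXRβ, stood far higher, at 30.3 ± 2.12 FPKM in KO and 31.4 ± 2.24 FPKM in WT (SD, n = 3 each), and was not called either (limma adjusted p = 0.694). *Nr1h2* was picked with its values known.

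The RXR genes encode the shared partner of these receptors. *Rxra* (chromosome 2, 27676440 to 27762957, plus strand), the main RXR of myeloid cells, had 18.5, 19.3 and 19.8 FPKM in KO replicates 1 to 3, against 17.4, 14.6 and 14.1 FPKM in WT replicates 1 to 3. The groups did not overlap, with WT replicate 1 nearest to KO, and *Rxra* was called higher at a margin (limma adjusted p = 0.0475) with a log2 fold change of 0.31 ± 0.09 (SE). This call was lost in 11 of 17 alternatives, among them TPM (adjusted p = 0.404), quantile normalization (0.174) and leaving out KO replicate 1 (0.0695), KO replicate 2 (0.128), KO replicate 3 (0.145), WT replicate 2 (0.128) or WT replicate 3 (0.140). *Rxrb* (chromosome 17, 34031812 to 34038393, plus strand), which is expressed in most tissues, had 5.77, 5.55 and 6.46 FPKM in KO replicates 1 to 3, against 6.44, 6.06 and 6.14 FPKM in WT replicates 1 to 3. It overlapped between the groups and was not called (log2 fold change -0.06, 95% interval -0.24 to 0.12, limma adjusted p = 0.589). *Rxra* exceeded *Rxrb* by 3.07- to 3.47-fold in KO libraries and by 2.29- to 2.70-fold in WT libraries.

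Genes known as PPAR targets were partly higher in KO. Of 19 tested PPAR targets 6 rose (31.6%, against 15.7% of all tested genes) and 0 fell by limma (0 fell also at an unadjusted p below 0.05 and with voom), with a median log2 fold change of 0.23 against 0.03 over all tested genes. With no filter 4 of 21 were called higher and 1 lower, where 1237 and 1187 of 28477 genes were called. *Pdk4*, under the minimum for testing and picked with its values known, had 0 reads over the KO libraries and 12 over the WT libraries. *Lpl*, which encodes the lipase that frees fatty acids from lipoproteins, rose 1.85-fold to 70.7 ± 1.14 FPKM in KO, against 38.2 ± 5.28 FPKM in WT (SD, n = 3 each; limma adjusted p = 0.00239). *Tgm2*, the transglutaminase gene, rose 1.69-fold, and *Hadha*, of mitochondrial fatty acid oxidation, 1.26-fold. The classical targets *Cd36* (322 ± 18.9 FPKM in KO and 332 ± 75.5 FPKM in WT) and *Fabp4* (70.6 ± 2.46 FPKM in KO and 76.6 ± 8.89 FPKM in WT) were not called (limma adjusted p = 0.946 and 0.452); both were picked with their values known. The count of PPAR targets called higher was 2 in TPM, 2 without WT replicate 2, 3 without KO replicate 2, KO replicate 3 or WT replicate 3, and 8 without both libraries numbered 1. That last setting called 2260 of 11774 tested genes higher, against 1833 of 11689 in the main model.

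Among 15 tested LXR targets 3 rose (20%, against 15.7% of all tested genes) and 5 fell (33.3%, against 12.4%), with a median log2 fold change of -0.07. *Scd1*, the stearoyl-CoA desaturase gene of fatty acid synthesis, had 1.00, 1.19 and 1.26 FPKM in KO replicates 1 to 3, against 11.9, 14.9 and 12.1 FPKM in WT replicates 1 to 3. Every KO library lay far below every WT library, at a mean 0.0888 of that in WT (log2 fold change -2.69, limma adjusted p = 6.58e-05). *Apoc1*, an apolipoprotein gene, fell to 0.349 ± 0.320 FPKM in KO, against 2.37 ± 0.571 FPKM in WT (SD, n = 3 each). By contrast *Smpdl3a*, a phosphodiesterase gene, rose 2.40-fold and *Cd5l*, which encodes a secreted macrophage protein, rose 2.09-fold (limma adjusted p = 1.25e-04 and 0.00239). *Abca1*, the cholesterol exporter gene, also rose, 2.34-fold, while *Apoe*, *Fasn* and *Mylip* fell (limma adjusted p between 0.00689 and 0.0182); these 4 were picked with their values known. The count of LXR targets called lower was 3 without KO replicate 2, KO replicate 3 or WT replicate 3.

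The REV-ERB genes had the largest log2 fold changes among the 9 tested receptors. *Nr1d1* (ENSMUSG00000020889, chromosome 11, 98767932 to 98775333, minus strand), the gene of REV-ERBα, had 8.05, 8.48 and 7.72 FPKM in KO replicates 1 to 3, against 4.93, 5.22 and 4.05 FPKM in WT replicates 1 to 3. Every KO library lay above every WT library, and the log2 fold change was 0.67 ± 0.10 SE (95% interval 0.44 to 0.90, limma adjusted p = 0.00474). *Nr1d2* (ENSMUSG00000021775, chromosome 14, 18204054 to 18239127, minus strand), the gene of REV-ERBβ, had 3.37, 4.19 and 4.95 FPKM in KO replicates 1 to 3, against 2.25, 2.34 and 2.17 FPKM in WT replicates 1 to 3. Here too the groups were apart, with more spread in KO (SD 0.790 FPKM) than in WT (SD 0.0843 FPKM), and the log2 fold change was 0.66 ± 0.12 SE (95% interval 0.37 to 0.95, limma adjusted p = 0.0108). The *Nr1d1* call held in all 17 alternatives. The *Nr1d2* call was lost in 2 of 17 alternatives, TPM (adjusted p = 0.0672) among them, and it held without both libraries numbered 1 (0.00704).

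*Nr1d1* shares 263 exon bases, 8.55% of its own in GENCODE M21, with the thyroid hormone receptor gene *Thra* on the opposite strand. Whether counting used strand is not given in the sources used here, so reads of that stretch cannot be assigned to either gene. *Thra* had 3.13, 3.31 and 4.29 FPKM in KO replicates 1 to 3, against 4.24, 3.83 and 2.41 FPKM in WT replicates 1 to 3, which overlapped (limma adjusted p = 0.887).

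The stretches just before the starts of the REV-ERB genes are shown because these genes rose together. They are the 250 bases before each RefSeq start on GRCm38.p6, 5′ to 3′ along the gene, chr11:98775378-98775627 and chr14:18239107-18239356, both on the minus strand. Capitals mark AGGTCA, the core that REV-ERB and other nuclear receptors bind.
Nr1d1: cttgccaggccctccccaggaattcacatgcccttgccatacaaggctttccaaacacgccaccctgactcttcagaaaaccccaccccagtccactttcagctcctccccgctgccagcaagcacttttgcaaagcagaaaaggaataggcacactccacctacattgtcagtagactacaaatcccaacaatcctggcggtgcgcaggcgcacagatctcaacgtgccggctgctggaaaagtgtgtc
Nr1d2: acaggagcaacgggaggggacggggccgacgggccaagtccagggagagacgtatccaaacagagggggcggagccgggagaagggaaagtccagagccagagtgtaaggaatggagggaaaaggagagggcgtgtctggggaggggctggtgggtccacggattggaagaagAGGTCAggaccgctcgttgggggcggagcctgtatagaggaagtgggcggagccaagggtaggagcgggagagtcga
*Nr1d2* held AGGTCA once, from 77 to 72 bases before the start, and *Nr1d1* had none in this window. Of 32851 such windows of mouse genes 14% held AGGTCA on either strand. The E-box CACGTG, bound by the clock activators, and the D-box forms TTACGTAA and TTATGTAA were in neither window, while 6.02%, 0.113% and 0.819% of all windows held them. The core TGATGNAA of amino acid response elements was in neither window and in 3.45% of all windows. A match or its absence in these letters is a description of the window and shows no binding.

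REV-ERB proteins repress clock genes at sites that the activator RORα can also bind. The activator gene *Rora* was higher in KO as well, at 8.43, 7.65 and 7.75 FPKM in KO replicates 1 to 3, against 4.31, 4.74 and 4.93 FPKM in WT replicates 1 to 3 (1.71-fold, limma adjusted p = 0.00203), and its call held in all 17 alternatives. Of 14 tested genes in the clock list 3 rose (21.4%, against 15.7% of all tested genes) and 0 fell by limma (0 fell also at an unadjusted p below 0.05 and with voom), and the median log2 fold change was 0.25. *Bhlhe40*, a repressor of E-box genes, rose 1.43-fold, and *Cry2*, a cryptochrome gene, rose 1.81-fold to 1.35 FPKM in KO, against 0.744 FPKM in WT. The gene most closely tied to REV-ERB repression, *Arntl* (encoding BMAL1), had 1.496, 1.878 and 2.004 FPKM in KO replicates 1 to 3, against 1.52, 1.19 and 1.30 FPKM in WT replicates 1 to 3, and was not called (limma adjusted p = 0.123). *Per2* had the largest estimate, 0.91 on the log2 scale, with overlapping groups and an adjusted p = 0.0542. *Arntl* and *Per2* were picked with their values known. The clock count was 0 higher in TPM, 6 without both libraries numbered 1 and 8 with array weights. Over all tested genes the counts higher in these settings were 542, 2260 and 2719, against 1833 in the main model.

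**Figure D3:**
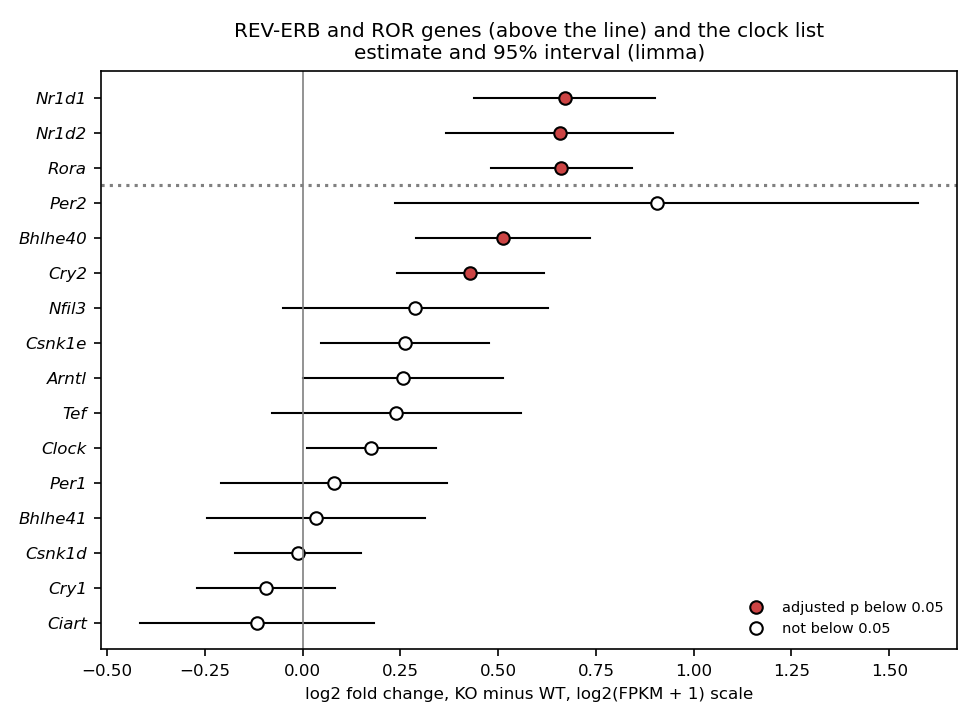
Log2 fold change, KO minus WT, with 95% confidence intervals from limma, for *Nr1d1*, *Nr1d2* and *Rora* above the dotted line and for 13 of the 14 tested genes of the clock list below it. Filled points have an adjusted p below 0.05. The 3 receptor genes lie between 0.66 and 0.67, and *Arntl* and *Clock* lie above 0 without passing the threshold.

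None of the 4 tested genes that REV-ERBs are known to repress in macrophages was called by limma (0 also at an unadjusted p below 0.05 and with voom). The chemokine gene *Ccl2* had 276, 65.2 and 71.9 FPKM in KO replicates 1 to 3, against 149, 338 and 317 FPKM in WT replicates 1 to 3 (limma adjusted p = 0.194). The cytokine gene *Il10* had 214, 49.0 and 48.0 FPKM in KO replicates 1 to 3, against 44.5, 174 and 139 FPKM in WT replicates 1 to 3 (limma adjusted p = 0.754). For both genes KO replicate 1 was high among KO libraries and WT replicate 1 was low among WT libraries. *Mmp9* went the other way, at 13.4, 12.1 and 12.5 FPKM in KO replicates 1 to 3, against 11.4, 9.0 and 11.6 FPKM in WT replicates 1 to 3. Its groups did not overlap (log2 fold change 0.23, limma adjusted p = 0.15), and it is in the neutrophil list as well. The remaining tested gene, *Il6*, overlapped between the groups (log2 fold change -0.30, limma adjusted p = 0.88). *Mmp9* and *Il6* were picked with their values known. Of this list 1 gene was called lower without KO replicate 1 or with array weights, and 3 without both libraries numbered 1. Over all tested genes the counts lower in these settings were 1353, 2152 and 1914, against 1445 in the main model.

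The NR4A genes divided by library as much as by genotype. *Nr4a1* (ENSMUSG00000023034, chromosome 15, 101254269 to 101274795, plus strand), which encodes NUR77, a restraint on inflammatory genes in macrophages, had 162, 62.9 and 65.0 FPKM in KO replicates 1 to 3, against 67.6, 153 and 133 FPKM in WT replicates 1 to 3. KO replicate 1 was the highest of all 6 libraries, and WT replicate 1 was level with KO replicates 2 and 3. The means were 96.7 ± 56.8 FPKM in KO and 118 ± 44.5 FPKM in WT (SD, n = 3 each), and the gene was not called (log2 fold change -0.35, 95% interval -1.45 to 0.76, limma adjusted p = 0.616). Without both libraries numbered 1 the estimate was -1.14 and was called (adjusted p = 0.00164); without KO replicate 1 alone it was -0.79 and without WT replicate 1 alone -0.70 (adjusted p = 0.158 and 0.285), and without KO replicate 2 or WT replicate 2 it was -0.11 and -0.12. *Nr4a3*, the gene of NOR1, was likewise high in KO replicate 1 and in WT replicates 2 and 3 and low in the other libraries, with 71.0, 29.4 and 30.3 FPKM in KO replicates 1 to 3, against 28.4, 59.5 and 54.9 FPKM in WT replicates 1 to 3 (limma adjusted p = 0.786, and 0.0016 with an estimate of -0.92 without both libraries numbered 1). *Nr4a3* was picked with its values known.

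*Nr4a2* (ENSMUSG00000026826, chromosome 2, 57106830 to 57124003, minus strand), which encodes NURR1, did not share that pattern. It had 0.867, 1.01 and 1.33 FPKM in KO replicates 1 to 3, against 1.75, 1.95 and 2.01 FPKM in WT replicates 1 to 3. Every KO library lay below every WT library, with KO replicate 1 the lowest, on 191 reads over the KO libraries and 309 over the WT libraries. *Nr4a2* was called lower (log2 fold change -0.49 ± 0.11 SE, 95% interval -0.75 to -0.23, limma adjusted p = 0.0191). This call was lost in 6 of 16 alternatives, among them TPM (adjusted p = 0.0507), no filter (0.0542), and leaving out KO replicate 2 (0.0683), WT replicate 2 (0.0616) or WT replicate 3 (0.0676). The ratio of *Nr4a1* to *Nr4a2* was 187, 61.95 and 48.8 in KO replicates 1 to 3 and 38.6, 78.4 and 66.3 in WT replicates 1 to 3.

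**Figure D4:**
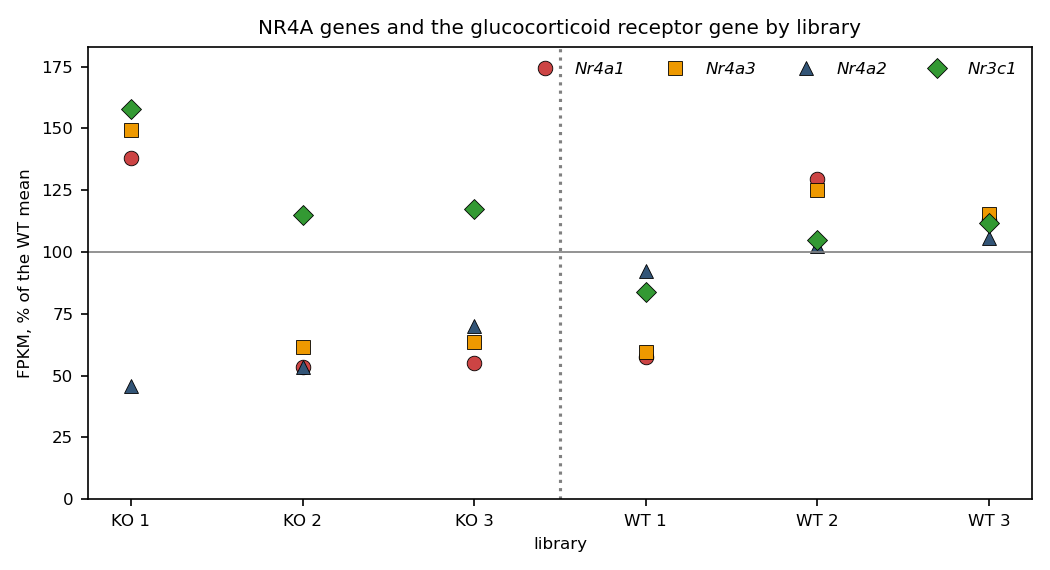
FPKM of *Nr4a1*, *Nr4a3*, *Nr4a2* and *Nr3c1* in each library as a percentage of the gene's WT mean, KO libraries left of the dotted line and WT libraries right of it. *Nr4a1* and *Nr4a3* lie close together in every library, high in KO replicate 1 and low in WT replicate 1, while *Nr4a2* is at 45.6% to 70.0% of its WT mean in the KO libraries.

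The starts of *Nr4a1* and *Nr4a2* are shown because both are known as targets of cyclic AMP signalling while their RNA differed in its pattern over the libraries. Both log2 fold changes were negative, and a difference between the genes was not tested. The windows are the 250 bases before each RefSeq start on GRCm38.p6, chr15:101266596-101266845 on the plus strand and chr2:57124004-57124253 on the minus strand. Capitals mark TGACG, the core of the cyclic AMP response element, or CGTCA, the same core on the opposite strand; this motif was chosen after the sequences had been read.
Nr4a1: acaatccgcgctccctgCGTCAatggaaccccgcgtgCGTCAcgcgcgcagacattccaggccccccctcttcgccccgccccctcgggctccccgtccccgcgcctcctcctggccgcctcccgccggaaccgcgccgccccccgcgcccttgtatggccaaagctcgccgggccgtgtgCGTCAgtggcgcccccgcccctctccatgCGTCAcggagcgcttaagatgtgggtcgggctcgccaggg
Nr4a2: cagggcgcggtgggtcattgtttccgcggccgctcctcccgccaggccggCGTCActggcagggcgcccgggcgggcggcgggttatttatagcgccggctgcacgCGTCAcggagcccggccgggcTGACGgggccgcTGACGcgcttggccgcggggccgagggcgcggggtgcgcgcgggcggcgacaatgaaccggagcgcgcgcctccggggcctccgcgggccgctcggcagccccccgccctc
Each window held 4 such cores, all on the opposite strand in *Nr4a1* and 2 on each strand in *Nr4a2*. Of all 32851 windows 17.8% held at least 1 core and 0.137% held 4 or more. The windows shown were 74.4% (*Nr4a1*) and 80.0% (*Nr4a2*) G or C, and these shares were not matched for base content. Because the motif was chosen from these sequences, the shares are a description only. The full element TGACGTCA (1.55% of all windows), the AP-1 site TGANTCA (6.75%) and the CArG box (1.47%) were in neither window. The window of *Nr4a1* lies inside the gene's annotated span, downstream of its first base.

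NR4A genes belong to the immediate early genes, which inflammatory signals induce without new protein. Of 19 tested genes in that list, *Nr4a3* among them, 7 rose (36.8%, against 15.7% of all tested genes) and 2 fell (10.5%, against 12.4%), with a median log2 fold change of 0.34. *Fos*, of the AP-1 factor, rose 1.97-fold, *Egr2*, a zinc finger factor gene, 2.63-fold, and *Atf3*, a stress-induced factor gene, 1.59-fold (limma adjusted p = 0.00184, 0.00756 and 0.00763). *Egr3*, a relative of *Egr2*, fell to 3.60 FPKM in KO, against 9.04 FPKM in WT (limma adjusted p = 0.00122). The median member stood at 152%, 116% and 122% of its WT mean in KO replicates 1 to 3 and at 88.8%, 98.5% and 111% in WT replicates 1 to 3. The count higher was 4 without WT replicate 2, and the count lower was 1 without any 1 of the KO replicates or without WT replicate 3.

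*Nr3c1* (ENSMUSG00000024431, chromosome 18, 39410545 to 39491301, minus strand), the glucocorticoid receptor gene, had 41.8, 30.5 and 31.1 FPKM in KO replicates 1 to 3, against 22.2, 27.8 and 29.6 FPKM in WT replicates 1 to 3. The groups did not overlap, but KO replicates 2 and 3 lay close to WT replicate 3, and the test was not passed (log2 fold change 0.36 ± 0.16 SE, 95% interval -0.02 to 0.74, limma adjusted p = 0.139). Without both libraries numbered 1 the estimate was 0.10 (adjusted p = 0.261).

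Among 15 tested genes that glucocorticoids are known to induce, 4 rose (26.7%, against 15.7% of all tested genes) and 2 fell (13.3%, against 12.4%), with a median log2 fold change of 0.08. *Sgk1*, a kinase gene, rose 3.21-fold to 101 ± 11.5 FPKM in KO, against 31.6 ± 6.08 FPKM in WT (SD, n = 3 each; limma adjusted p = 0.00116). *Klf9*, a transcription factor gene, rose 1.89-fold, and *Cd163*, the hemoglobin scavenger receptor gene, rose 3.63-fold from a low level, to 2.42 ± 0.172 FPKM in KO, against 0.665 ± 0.102 FPKM in WT. *Il1r2*, the decoy receptor gene for interleukin-1, fell to 0.318 of its WT level (limma adjusted p = 1.81e-04). It is also in the neutrophil list, whose summed level was lower in KO. Of the 10 tested genes in that list 3 were called lower, *Il1r2* among them, and its member *Mmp9* lay above WT. *Tsc22d3*, which encodes the glucocorticoid-induced leucine zipper and was picked with its values known, rose 1.91-fold to 10.9 ± 2.36 FPKM in KO, against 5.71 ± 0.475 FPKM in WT (limma adjusted p = 0.0133). *Fkbp5*, another gene widely used as a sign of glucocorticoid action, fell to 0.877 ± 0.211 FPKM in KO, against 1.80 ± 0.274 FPKM in WT (limma adjusted p = 0.0177), a call lost without WT replicate 3 (0.0591) and with no filter (0.0507). Without both libraries numbered 1 the list had 4 members higher and 7 lower, and without WT replicate 3 it had 1 lower. Of the 11774 genes tested without both libraries numbered 1, 2260 were called higher and 1914 lower.

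Genes listed as chaperones and cochaperones of the glucocorticoid receptor, many of which also serve other proteins, were partly lower in KO. Among the 13 that were tested, 7 fell (53.85%, against 12.4% of all tested genes) and 0 rose by limma (0 rose also at an unadjusted p below 0.05 and with voom), with a median log2 fold change of -0.33. *Hspa8*, the constitutive HSP70 gene, fell to 222 ± 39.8 FPKM in KO, against 479 ± 70.9 FPKM in WT (SD, n = 3 each; limma adjusted p = 0.00567). *Dnajb1*, of an HSP40 cochaperone, fell to 0.635 and *Fkbp4*, of a receptor-bound immunophilin, to 0.757 of the WT level, and *Fkbp5* belongs to this list as well. The count lower was 4 in TPM, with no filter, and without KO replicate 2, KO replicate 3 or WT replicate 3.

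Coregulators, the proteins through which nuclear receptors act on chromatin, were called about as often as all tested genes. Of 18 tested genes 3 rose (16.7%, against 15.7% of all tested genes) and 2 fell (11.1%, against 12.4%), with a median log2 fold change of -0.01. *Ep300*, an acetyltransferase gene, rose 1.396-fold, *Hdac3*, the deacetylase gene of the corepressor complex that REV-ERBs recruit, rose 1.25-fold to 12.8 ± 0.447 FPKM in KO, against 10.2 ± 0.516 FPKM in WT (SD, n = 3 each; limma adjusted p = 0.0188), and *Rcor1*, a corepressor gene, rose 1.32-fold. *Ncoa2*, the coactivator gene used by steroid receptors, fell to 1.43 ± 0.0357 FPKM in KO, against 2.41 ± 0.275 FPKM in WT (limma adjusted p = 0.00978). In TPM 0 coregulators were called higher, and without KO replicate 2, KO replicate 3 or WT replicate 3 the count was 1 in each direction.

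Enzymes that make or clear receptor ligands were tested for 10 of 21 genes. In this list 2 rose (20%, against 15.7% of all tested genes) and 2 fell (20%, against 12.4%). *Dhrs3*, which reduces retinaldehyde and so limits retinoic acid, rose 2.44-fold to 19.6 ± 5.97 FPKM in KO, against 8.03 ± 2.76 FPKM in WT (SD, n = 3 each; limma adjusted p = 0.0271). *Aldh1a2*, which makes retinoic acid, fell to 1.15 ± 0.202 FPKM in KO, against 3.25 ± 0.798 FPKM in WT (limma adjusted p = 0.00717). *Alox15*, whose lipid products can activate PPARγ and which marks large peritoneal macrophages, fell to 0.553 of its WT level, and *Hsd11b1*, which regenerates active glucocorticoid, rose 1.37-fold. Neither *Dhrs3* nor *Hsd11b1* was called in TPM, with no filter, or without KO replicate 2, KO replicate 3 or WT replicate 2; *Dhrs3* was not called without WT replicate 3 either, nor *Hsd11b1* without WT replicate 1.

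Of the other 39 nuclear receptor genes of the mouse, 10 passed the minimum, and 2 rose (20%, against 15.7% of all tested genes) and 0 fell by limma (0 fell also at an unadjusted p below 0.05 and with voom). Besides *Rora* this was *Nr2c1*, an orphan receptor gene, at 1.15 FPKM in KO and 0.736 FPKM in WT, a call lost in 10 of its 16 alternatives. The count lower in this list was 1 with no filter and 1 without both libraries numbered 1. The retinoic acid receptor gene *Rara*, picked with its values known, had 17.3, 23.5 and 23.6 FPKM in KO replicates 1 to 3, against 18.3, 17.3 and 14.6 FPKM in WT replicates 1 to 3 (limma adjusted p = 0.132, and 0.014 without both libraries numbered 1).

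The genes whose log2(FPKM + 1) followed each called receptor most closely over the 6 libraries, among the 7090 or 7091 genes that averaged 2 FPKM or more, are given as a description. They included *Rbm45*, *Nf1* and *Asb6* for *Nr1d1* (Pearson r 0.999, 0.994 and 0.993), *Klhdc10* and *Hps1* for *Nr1d2* (0.995 and 0.995), *Tbcc*, *Arfgap2* and *Chst11* for *Rxra* (0.997, 0.996 and 0.992), and *Gmps*, *Fli1* and *Ighj3* for *Nr4a2* (0.995, 0.994 and 0.991). The libraries form 2 genotype groups, so any gene that differs between the groups with little spread gives a high r. *Ighj3* is an immunoglobulin joining segment, at 0, 0 and 4.17 FPKM in KO replicates 1 to 3 and 23.39, 31.85 and 39.94 FPKM in WT replicates 1 to 3. B cell markers were lower in the same KO libraries, and the part of B cells in the *Nr4a2* values was not tested. Neither REV-ERB gene was among the 3 closest to the other.

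**Figure D5:**
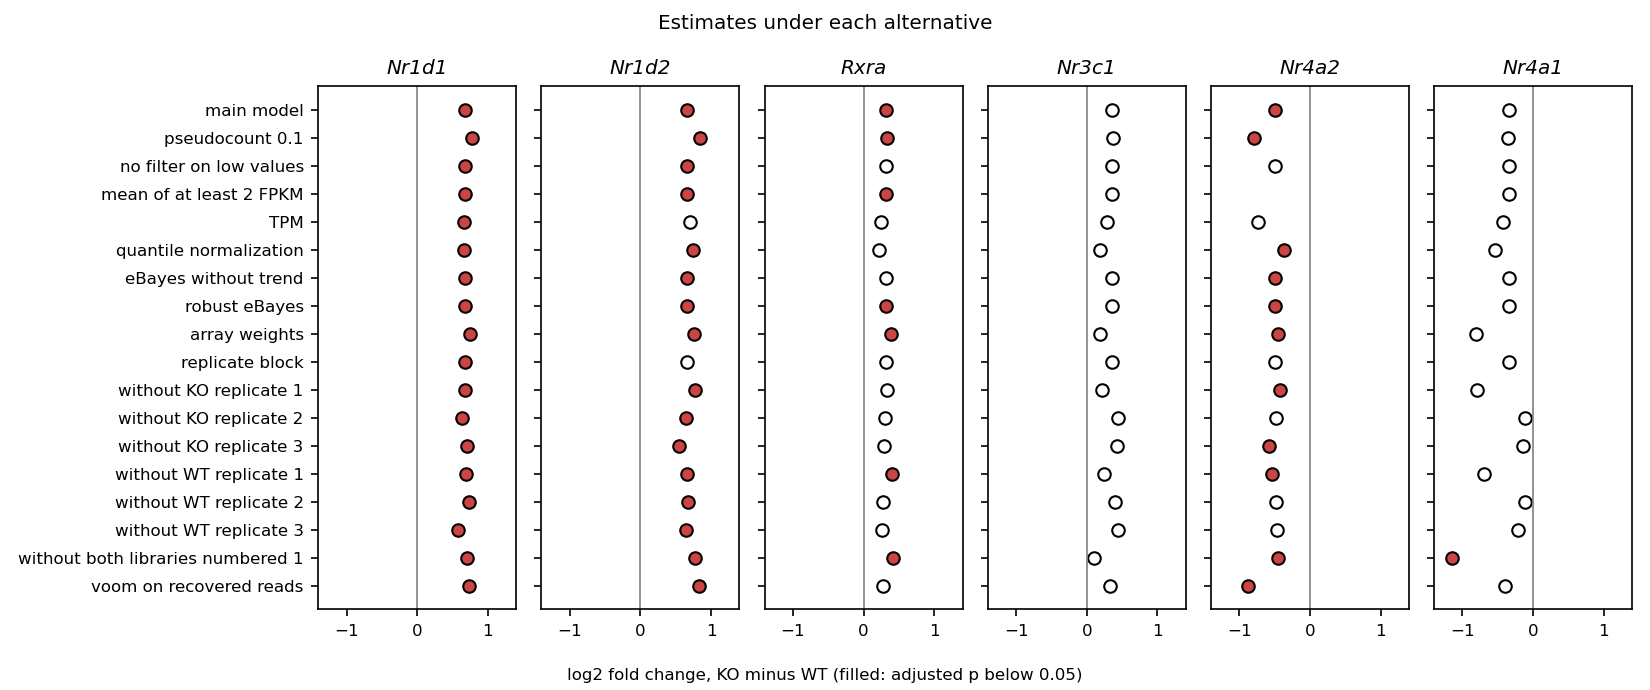
Log2 fold change, KO minus WT, of 6 receptors under the main model and each alternative, with filled points where the adjusted p was below 0.05. Every estimate shown keeps its sign, *Nr1d1* is filled throughout, and *Nr4a1* is filled only without both libraries numbered 1.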

How the data were processed

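The authors deposited 1 table of FPKM values for 6 libraries, with gene coordinates and lengths on GRCm38 (mm10), the build per the submitters' processing notes. The aligner, counter, annotation release and strand setting were not given in the sources used here. Per the labels' protocols, RNA came by Trizol and libraries from an Illumina TruSeq kit. In each library the deposited FPKM, multiplied by gene length, came in equal steps (100% of values above 0, within 0.05 of a step), and the number of steps was taken as reads.

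Groups and replicate numbers came from the sample titles. The 11689 genes averaging 0.5 FPKM or more were tested as log2(FPKM + 1) with limma 3.58.1 in R 4.3.3, with genotype alone, eBayes and an intensity trend. A called gene has a Benjamini-Hochberg adjusted p below 0.05. This scale understates changes of low genes. Folds are ratios of mean FPKM. Scripts were tested on simulated data. Coordinates of the members were checked against GENCODE M21, and those printed are the deposited ones. They matched except for *Nr3c1*, which ends at 39519421 in GENCODE and 39491301 as deposited, and *Rxrb*, at 34038399 and 34038393. The exon bases were 7684 in GENCODE and 7425 as deposited for *Nr3c1*, and 3973 and 3698 for *Rxrb*. Promoter windows came from RefSeq (GRCm38.p6); all 4 genes shown matched by symbol.

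The receptors, lists and tests were chosen with earlier results of these data known. Named genes are the members, *Metrnl*, up to 4 called genes with the smallest p per list (the 2 most abundant where none was called) and the 3 genes most like each called member; others are marked as picked with their values known. A few genes that this rule names are not reported here. Alternatives comprised another pseudocount, filters, scalings, variance models, the replicate block and leaving out libraries. Intervals cover the spread of these libraries only.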

Additional observations from a re-analysis of the deposited data

How the results depend on the processing

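Over all genes, 542 were higher in TPM and 876 lower at a mean of at least 2 FPKM, where 7702 genes were tested and not 11689. Calls rose to 2260 higher and 1914 lower of 11774 genes without both libraries numbered 1. Array weights gave 2719 higher and 2152 lower. With the replicate block 479 were higher and 604 lower; leaving out 1 library gave 908 to 1674 higher and 849 to 1353 lower. Of the receptors, 1 was higher in TPM and 1 with the replicate block, and leaving out 1 library gave 2 to 3. The count lower was 0 in TPM, with no filter, at a mean of at least 2 FPKM (*Nr4a2* was then not tested) and with the replicate block, 0 to 1 leaving out 1 library, and 2 with quantile normalization (*Ppard* added) or without both libraries numbered 1 (*Nr4a1* added). Each of KO replicates 2 and 3 and WT replicates 2 and 3, left out alone, lowered the all-gene counts by over 1.5 times. The cause was not tested. None of the 4 called receptors changed sign in any alternative run.

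Same-numbered KO and WT libraries did not deviate together (correlations of -0.5, -0.19 and -0.16), so the numbers were not taken as pairs. With the replicate block the calls of *Nr1d2* (limma adjusted p = 0.0538), *Nr4a2* (0.0590) and *Rxra* (0.144) were lost, and the counts higher fell to 2 PPAR targets, 2 LXR targets, 1 clock gene, 1 immediate early gene, 1 other receptor, 3 glucocorticoid-induced genes, 0 coregulators and 0 ligand enzymes; the counts lower were 3 LXR targets, 1 immediate early gene, 1 glucocorticoid-induced gene, 2 ligand enzymes, 0 chaperones and 0 coregulators. The median of all genes was -0.04 in TPM and 0.05 with quantile normalization on the log2 scale. Limma voom on recovered reads, chosen after seeing the data, gave 2 receptors higher and 1 lower, with *Rxra* at an adjusted p = 0.0585. The planned count models were not run because the deposited values are FPKM. Depth limits *Pparg*, with 29 to 57 reads per group.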

Other observations

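Receptors under the minimum for testing also differed in trace amounts. The liver receptor homologue gene *Nr5a2* had 0 reads over the KO libraries and 80 over the WT libraries (0.190, 0.302 and 0.555 FPKM in WT replicates 1 to 3). The related gene *Nr5a1* had 1 read over the KO and 23 over the WT libraries. Both genes were chosen after their values were seen and were not tested in the main model. With no filter on low values 36 of the other nuclear receptors were tested, and 1 was called higher and 1 lower. Called markers of B cells, dendritic cells and mast cells, and *Col1a1*, *Col3a1* and *Sparc* of the mesothelial and fibroblast list, were lower in the same libraries, and their part in these values was not tested.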
